A study of Rattus norvegicus with 12 samples.

Results

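The miR-30 family was followed in small RNA from extracellular vesicles (EVs) of rat serum after tendon injury. The members were taken by name, as the rows rno-miR-30a-5p, rno-miR-30b-5p, rno-miR-30c-5p, rno-miR-30d-5p, rno-miR-30e-5p, rno-miR-30a-3p, rno-miR-30d-3p and rno-miR-30e-3p of the deposited count table, and they made up 8 of its 426 miRs. All 8 were found, 5 from the 5p arm of their hairpin and 3 from the 3p arm.

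Female wild-type Wistar rats, 12 weeks old, received a needle injury to the left Achilles tendon, so every group was injured. Rapamycin, an inhibitor of the kinase mTOR, was injected intraperitoneally at 2 mg/kg daily, or vehicle was injected in a matched volume, and serum was taken at day 7 after 5 injections or at day 21 after 19. The 4 groups were rapamycin day 7, vehicle day 7, rapamycin day 21 and vehicle day 21, with 3 libraries each, labelled as biological replicates. GEO's labels give the tissue as tendon, whereas the series' design text and the methods of the study describe serum EVs, and the values were read as serum EV RNA. The authors caution that size exclusion by itself may not isolate EVs well enough. They could not characterise the isolated material comprehensively. EVs from serum carry RNA of many tissues, and a lower level per vesicle cannot be told apart from fewer vesicles of the kind that carries a miR. No uninjured or untreated serum was analysed here.

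A miRNA is cut from a hairpin precursor, whose 2 arms give the 5p and the 3p product, and either can be loaded into the silencing complex. Bases 2 to 8 of the mature strand, the seed, pair with target mRNAs. The 5p products of the miR-30 family share their seed, and the mRNA of beclin 1, a core protein of autophagosome formation, is a well-known target, as are mRNAs of other autophagy proteins. Inhibition of mTOR by rapamycin induces autophagy.

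Sequences are shown because the seed defines the family and the bases after it decide how well reads can be assigned. RefSeq tables for the assembly GRCr8, which is not the assembly the authors mapped to, held the mature sequence of 4 of the 8 members. On that assembly rno-miR-30a-5p lies at chr9:33233946-33233967 and rno-miR-30a-3p at chr9:33233987-33234008, both on the plus strand, and rno-miR-30e-5p at chr5:139637504-139637525 on the minus strand. rno-miR-30c-5p lies at chr5:139634505-139634527 on the minus strand and at chr9:33253695-33253717 on the plus strand. The sequences are printed 5′ to 3′ with the seed in capitals.
rno-miR-30a-5p: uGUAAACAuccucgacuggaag
rno-miR-30e-5p: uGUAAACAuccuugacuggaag
rno-miR-30c-5p: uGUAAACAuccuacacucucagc
rno-miR-30a-3p: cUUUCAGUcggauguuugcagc
The 3 5p sequences had one seed, and rno-miR-30a-3p had another. With positions counted from 1 at the 5′ end of rno-miR-30a-5p, rno-miR-30e-5p differed from it at 1 base, C13U, and rno-miR-30c-5p differed at 5 bases over the 22 compared (C13A, G14C, G18C, G19U and A20C). Reads were matched to miRBase with up to 1 mismatch, and the sources used here do not state how a read matching both rno-miR-30a-5p and rno-miR-30e-5p was counted, so the split between these 2 is uncertain. The 4 members without a mature sequence here could not be checked for such near matches, so their split from other members is uncertain too. Among the 385 miRs of the table with a RefSeq mature sequence, the 3 5p members shown above held the shared 5p seed.

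The rat Mir30a hairpin, at chr9:33233941-33234011 on the plus strand of GRCr8, is shown with its 5p and then its 3p product in capitals, since both arms are compared within it.
Mir30a: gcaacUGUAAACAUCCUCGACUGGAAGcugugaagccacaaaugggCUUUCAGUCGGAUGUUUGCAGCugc
In the annotation, Mir30c1 and Mir30e lie together within the protein-coding gene Nfyc on chromosome 5, Mir30a and Mir30c2 lie close to each other on chromosome 9, Mir30c2 within a long non-coding RNA gene, and Mir30b and Mir30d neighbour each other. The mature rno-miR-30c-5p can come from Mir30c1 or Mir30c2, which give the same mature sequence.

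The libraries held 16327 to 95834 miR counts, and a count of 3 corresponded to 31.3 to 184 CPM, the count scaled to 1000000 miR counts. The study's supplementary read table lists 10 of the 12 libraries. The unlisted ones, rapamycin day 7 replicate 2 and vehicle day 7 replicate 1, stood apart, with 5.53 and 12.8 miR counts per calibrator spike-in count against 0.686 to 1.58 in the others. Synthetic spike-in sequences made up 24.3% and 13.6% of their counts against 52.5% to 71.8% in the others. Both libraries also held less of 5 erythrocyte miRs (59830 and 27246 CPM in sum, against 113721 to 193757). The comparisons were therefore made with all 12 libraries and again with the 10 listed ones.

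The family held 1.23% to 7.96% of the miR counts of a library, with a median of 2.12%. The highest shares were those of the unlisted libraries, 7.96% for vehicle day 7 replicate 1 and 6.31% for rapamycin day 7 replicate 2, and the highest listed share was 4.25% in rapamycin day 21 replicate 2. By count, rno-miR-30a-5p was the 4th most abundant miR in each unlisted library and ranked between 14 and 30 in the listed ones. The summed 5p members reached 10113 to 61773 CPM after TMM normalization, edgeR's scaling for differences in composition, and the summed 3p members 1373 to 3931 CPM.

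Averaged over the 12 libraries, the order of levels in TMM-normalized CPM was rno-miR-30a-5p (13561 ± 8896, SD, n = 12), rno-miR-30d-5p (7915 ± 5351), rno-miR-30e-5p (3303 ± 1895), rno-miR-30e-3p (1212 ± 418), rno-miR-30a-3p (1011 ± 450), rno-miR-30c-5p (739 ± 278), rno-miR-30b-5p (440 ± 414) and rno-miR-30d-3p (45.5 ± 54.7). Mature miRs are of nearly equal length, so these levels were compared without a length correction. Preferences in ligation were not corrected, and neither was the assignment of reads that match more than 1 member. Within-library ratios were tested for all 28 pairs of members by an exact permutation test that flips signs over libraries, two-sided, with Benjamini-Hochberg adjustment over the 28. In all 12 libraries rno-miR-30a-5p stood above rno-miR-30d-5p, on average 1.75-fold (adjusted p = 0.000684), and rno-miR-30d-5p stood above rno-miR-30e-5p, on average 2.25-fold (exact permutation test, adjusted p = 0.000684). rno-miR-30e-5p stood above rno-miR-30e-3p in 11 of 12 libraries, on average 2.57-fold (exact permutation test, adjusted p = 0.00124). Among neighbours in the order, 2 pairs did not pass. They were rno-miR-30e-3p against rno-miR-30a-3p (1.18-fold, higher in 8 of 12 libraries, exact adjusted p = 0.320) and rno-miR-30a-3p against rno-miR-30c-5p (1.34-fold, higher in 8 of 12, exact adjusted p = 0.0699). All other pairs passed, which made 26 of 28 in the 12 libraries and 25 in the 10 listed ones, where rno-miR-30e-3p against rno-miR-30c-5p was also not called (1.59-fold, exact adjusted p = 0.0778).

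Library by library, rno-miR-30a-5p, the main product of its hairpin, reached 12093, 27688 and 16618 CPM in replicates 1 to 3 of rapamycin day 7 and 33069, 9643 and 7176 CPM in those of vehicle day 7. At day 21 it reached 8373, 18474 and 5670 CPM with rapamycin and 6489, 6219 and 11218 CPM with vehicle. The unlisted libraries were the highest of all, the listed rapamycin libraries of day 7 lay above the listed vehicle ones, and the day 21 groups overlapped. rno-miR-30d-5p, from a separate locus, was also highest in the unlisted libraries, with 5572, 13412 and 10738 CPM in rapamycin day 7 and 20443, 5806 and 5660 CPM in vehicle day 7, where the listed libraries of both treatments overlapped. It held 3806, 12815 and 2200 CPM in rapamycin day 21 and 3461, 5377 and 5691 CPM in vehicle day 21. rno-miR-30e-5p held 2082, 3607 and 4858 CPM in rapamycin day 7, 6879, 2651 and 2117 CPM in vehicle day 7, 1459, 6865 and 1692 CPM in rapamycin day 21, and 2163, 2728 and 2538 CPM in vehicle day 21. In these 3 miRs rapamycin day 21 replicate 2 stood high within its group.

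**Figure D1:**
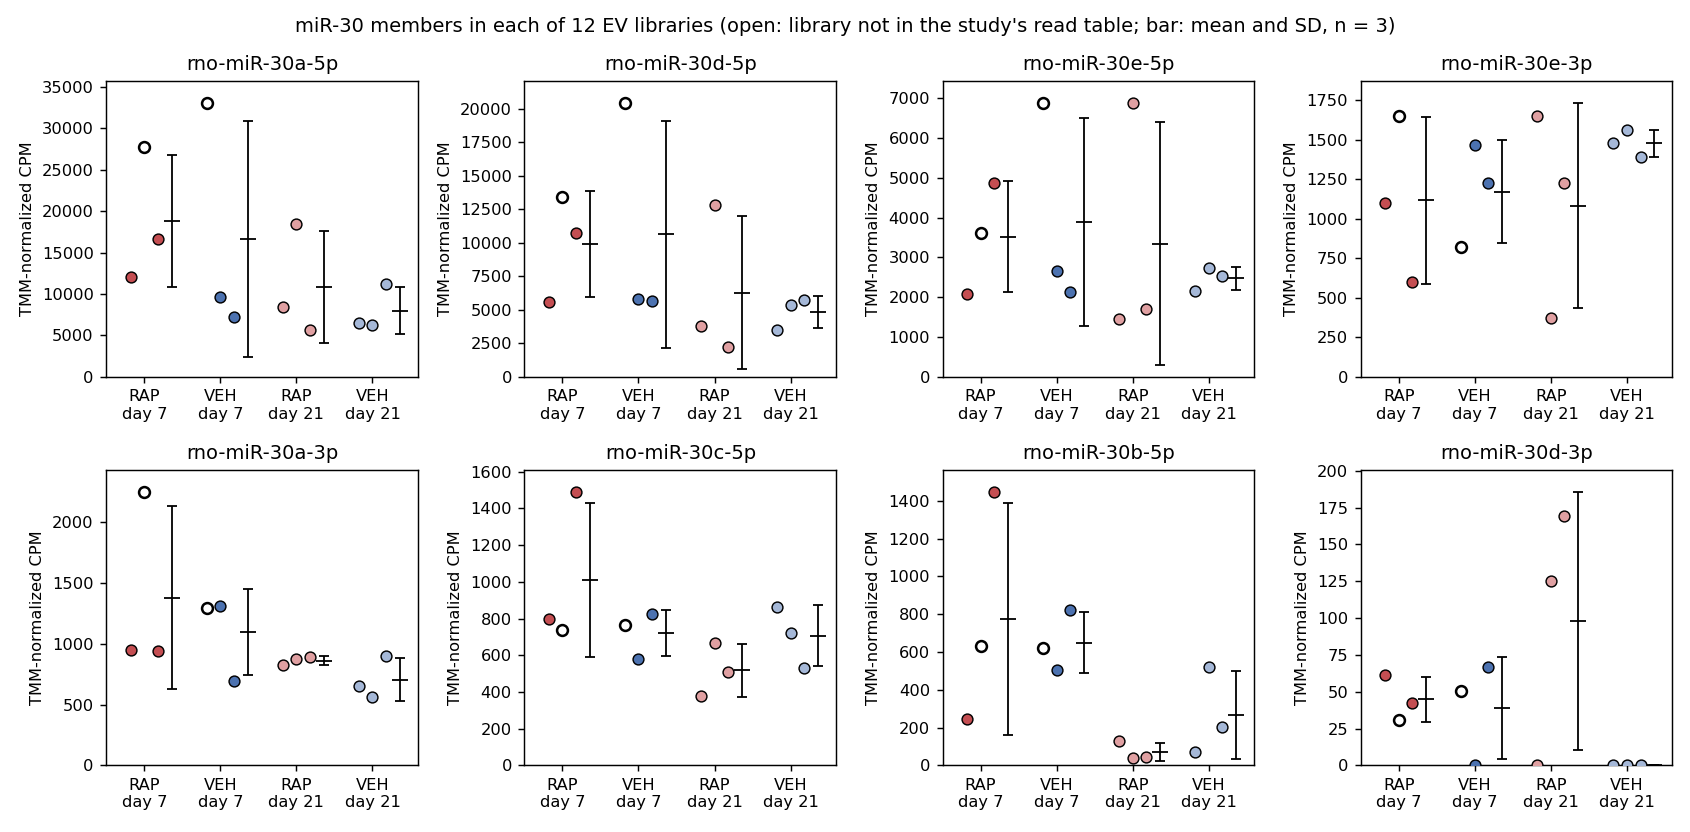
TMM-normalized CPM (vertical axes, linear, one scale per panel) of the 8 members in each of the 12 EV libraries, by treatment (RAP, rapamycin, and VEH, vehicle) and day. Points are libraries, open points are the 2 libraries not in the study's read table, and bars give the mean and SD of 3 libraries. The open points are the highest for rno-miR-30a-5p, at 27688 and 33069 CPM, and rno-miR-30b-5p lies at 41.6 to 127 CPM in rapamycin day 21.

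The first comparison was that of rapamycin with vehicle, which was made at each day and over both days with timepoint as a block. No member was called between rapamycin and vehicle in any of these fits. In edgeR's quasi-likelihood test on the counts, with Benjamini-Hochberg adjustment over all miRs, 0 of 8 members passed an adjusted p under 0.05 at day 7, at day 21 and with timepoint as block, and 0.0% of all 426 miRs did so in each. All 8 members entered these fits, since no filter on low counts was set. At an unadjusted p under 0.05 stood 0 members at day 7, 1 at day 21, rno-miR-30d-3p, with 0, 3 and 4 counts against 0 in all 3 vehicle libraries, and 0 with the block. No fold is given for rno-miR-30d-3p, whose counts lay at or near the floor of 3. DESeq2 and limma-voom also called 0 members in these 3 comparisons and in the interaction of treatment and timepoint. In the 10 listed libraries 0.548% of 365 miRs were called at day 7, 0.0% at day 21 and 0.548% with the block, and again no member was among them. In edgeR that interaction called no member either, with 0.0% of all miRs called in the 12 libraries and 0.274% in the 10, and 0 members at an unadjusted p under 0.05.

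With timepoint as a blocking factor, the log2 fold change of rno-miR-30a-5p for rapamycin against vehicle was 0.31 (SE 0.32, 95% interval -0.32 to 0.94, adjusted p = 0.915 in edgeR). In the 10 listed libraries it was 0.66 (SE 0.25, 95% interval 0.16 to 1.16), with an unadjusted p of 0.00966 and an adjusted p of 0.353 in edgeR. For rno-miR-30d-5p the log2 fold change was 0.13 (SE 0.34) in the 12 libraries and 0.51 (SE 0.28) in the 10, and for rno-miR-30e-5p it was 0.14 (SE 0.37) and 0.57 (SE 0.33). The values of these 3 abundant 5p members were thus larger without the unlisted libraries, though their intervals were wide. Among the low members, rno-miR-30c-5p had a log2 fold change of 0.04 (SE 0.51), rno-miR-30b-5p of -0.58 (SE 0.62), rno-miR-30a-3p of 0.32 (SE 0.46) and rno-miR-30e-3p of -0.25 (SE 0.44). Over the 10 these were 0.15, -0.64, 0.24 and -0.43. Over the 7 members other than rno-miR-30d-3p the median log2 fold change was 0.13, beside -0.10 over all miRs, and in the 10 libraries 0.24 beside 0.03. In both, 5 of 7 were above 0.

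Scaled to the calibrator spike-ins in place of the miR total, all 7 of these log2 fold changes lay below 0, with a median of -0.64 beside -0.76 over all miRs, so the direction for rapamycin against vehicle flipped for 5 of them and none was called. Among the 7 members other than rno-miR-30d-3p, the largest log2 fold change in size at day 7 was 0.47 for rno-miR-30c-5p (SE 0.70) in the 12 libraries and 0.82 for rno-miR-30a-5p (SE 0.41, edgeR adjusted p = 0.979) in the 10. At day 21 it was -1.96 for rno-miR-30b-5p (SE 1.03, edgeR adjusted p = 1) in the 12 libraries and -1.81 (SE 1.01) in the 10. An exact permutation test of log2(CPM + 10), with labels permuted within day or within treatment, called none of the 8 members for treatment or for day after adjustment over the 16 tests. With 16 tests, 1 member alone could not have passed, since its adjusted p could not fall below 0.08 in the 12 libraries, or below 0.267 for treatment and 0.16 for day in the 10. The lowest exact unadjusted p was 0.01 in the 12 libraries and 0.03 in the 10, both for rno-miR-30b-5p over time.

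**Figure D2:**
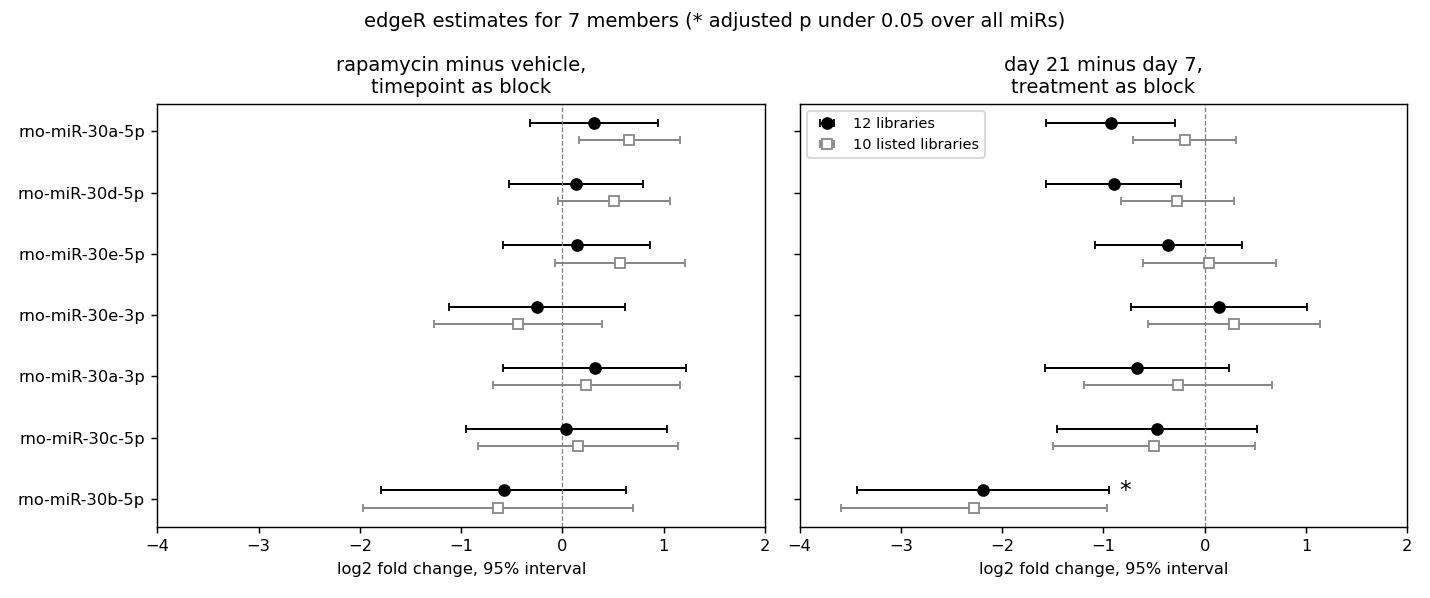
log2 fold changes (horizontal axes) of 7 members with 95% intervals from edgeR, for rapamycin minus vehicle with timepoint as block and for day 21 minus day 7 with treatment as block. Filled circles are the fit to 12 libraries, open squares that to the 10 listed ones, and an asterisk marks an adjusted p under 0.05. Of the 7 members, rno-miR-30b-5p at day 21 against day 7 carries the asterisk, at -2.19 in the 12 libraries.

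The second comparison was that of day 21 with day 7. rno-miR-30b-5p, which shares the family name with the more abundant rno-miR-30d-5p of the neighbouring hairpin, was the only member called in the 12 libraries, and it was lower at day 21. Its counts were 8, 41 and 34 in rapamycin day 7 and 74, 20 and 37 in vehicle day 7, against 2, 1 and 1 in rapamycin day 21 and 2, 13 and 5 in vehicle day 21. In CPM these were 245, 632 and 1449, then 620, 505 and 825, against 127, 41.6 and 42.3 and against 72.1, 522 and 205. The rapamycin groups did not overlap, while in vehicle day 21 replicate 2 lay above the lowest day 7 library.

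With treatment as a blocking factor, the log2 fold change of rno-miR-30b-5p for day 21 against day 7 was -2.19 (SE 0.63, 95% interval -3.44 to -0.95, adjusted p = 0.0197 in edgeR). This was 1 of 8 members, where 3.52% of all miRs were called. In the 10 listed libraries it was -2.28 (SE 0.67), but the adjusted p was 0.0839 in edgeR, and 0 of 8 members were called beside 0.274% of all miRs, with 1 member at an unadjusted p under 0.05. Within rapamycin the log2 fold change was -3.48 (SE 1.00, adjusted p = 0.0454 in edgeR), where 1.17% of all miRs were called, and -3.51 (SE 1.03, adjusted p = 0.0622) in the 10, where 0.548% were called. Within vehicle it was -1.29 (SE 0.84, adjusted p = 0.744 in edgeR), and -1.30 (SE 0.89) in the 10. The difference between these changes, the interaction, was -2.20 with an adjusted p of 1.00 and an unadjusted p of 0.0909 in edgeR, and -2.21 with an unadjusted p of 0.11 in the 10, so a difference between the treatments in the change over time was not shown.

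All 3 rapamycin day 21 libraries held at most 2 counts of rno-miR-30b-5p, below the 3 counts taken as the floor of a library, so the fold there rests on few reads. Summed over the libraries, rapamycin held 83 counts of 106328 at day 7 and 4 of 62885 at day 21, a ratio of 12.3 with an exact 95% counting interval from 4.62 to 46.1. Vehicle held 131 of 189649 and 20 of 85855, a ratio of 2.97 with an interval from 1.84 to 5.01. In the listed libraries the ratios were 12.03 (4.36 to 46.2) and 2.61 (1.54 to 4.58). These intervals cover counting error only, not the spread between animals, and without molecular identifiers the reads do not each stand for a separate molecule.

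The call of rno-miR-30b-5p with treatment as block was lost when 1 of 4 libraries was left out, with edgeR adjusted p from 0.0509 to 0.123. They were rapamycin day 7 replicate 3 (log2 fold change -1.82), rapamycin day 21 replicate 2 (-1.95), rapamycin day 21 replicate 3 (-1.97) and vehicle day 21 replicate 1 (-2.02). It was also lost with limma-voom (-2.13, adjusted p = 0.123) and with a filter on low counts (filterByExpr, -2.12, adjusted p = 0.176). DESeq2 kept it (-2.26, adjusted p = 0.0260), and every setting gave a log2 fold change below 0. Within rapamycin the call was kept without rapamycin day 7 replicate 1, vehicle day 7 replicate 1 or vehicle day 21 replicate 3 and was lost without any other library, with log2 fold changes from -3.99 to -2.70.

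Sums of liver and muscle miRs are given beside these levels as a description. The liver sum was also lower at day 21 with rapamycin. The sum of 4 liver miRs was 9419 to 11505 CPM in rapamycin day 7, 4435 to 11420 CPM in vehicle day 7, 381 to 5076 CPM in rapamycin day 21 and 361 to 7042 CPM in vehicle day 21. Of these 4, rno-miR-122-5p, the dominant miR of hepatocytes, was called lower at day 21 with treatment as block, where 3.52% of all miRs were called. rno-miR-194-5p was at 0 in all of vehicle day 21. Single results of the other liver miRs, and that of rno-miR-122-5p in the 10 libraries, are not given here. With vehicle the listed day 7 libraries held 4435 and 4493 CPM, so the sums overlapped between days there. The sum of 4 muscle miRs was 298 to 1255 CPM, 151 to 8839 CPM, 0 to 1872 CPM and 40.1 to 532 CPM in the same order of groups, with the highest value in the unlisted vehicle day 7 replicate 1. The part of either list in the result was not tested. The miR totals moved as well, from 22355 to 95834 counts at day 7 and from 16327 to 32126 at day 21.

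For the abundant members the change over time depended on the unlisted libraries, which are both of day 7. The log2 fold change of rno-miR-30a-5p for day 21 against day 7 was -0.93 (SE 0.32, unadjusted p = 0.00424, adjusted p = 0.0859 in edgeR) in the 12 libraries and -0.20 (SE 0.26, adjusted p = 0.899 in edgeR) in the 10. That of rno-miR-30d-5p was -0.90 (SE 0.34, adjusted p = 0.127 in edgeR) and -0.27 (SE 0.28). Without vehicle day 7 replicate 1 alone the values were -0.49 for each of the 2 miRs. Both passed the test when rapamycin day 21 replicate 2 was left out (-1.22, adjusted p = 0.00821, and -1.39, adjusted p = 0.00339, in edgeR) or vehicle day 7 replicate 3 (-1.09, adjusted p = 0.0253, and -1.03, adjusted p = 0.0466). rno-miR-30a-5p also passed without rapamycin day 7 replicate 1 (-1.07, adjusted p = 0.0442 in edgeR). The share of all miRs called in these leave-one-out fits is not given here, so these calls are not read as particular to the family. With RLE size factors, where 6.57% of all miRs were called, or with the plain miR total as library size, where 7.04% were, both were called as well. Scaled to the calibrator spike-ins, 6 of the 7 members other than rno-miR-30d-3p were called lower at day 21, where 27.0% of all miRs were called, all of them lower, with a median log2 fold change of -3.11 beside -2.19 over all miRs. That scaling includes the unlisted libraries and was not run in the 10. For rno-miR-30e-5p the log2 fold change was -0.36 (SE 0.37) in the 12 libraries and 0.05 (SE 0.33) in the 10.

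The remaining members gave log2 fold changes over time of -0.47 (SE 0.50) for rno-miR-30c-5p, -0.66 (SE 0.46) for rno-miR-30a-3p and 0.14 (SE 0.44) for rno-miR-30e-3p, none of them called. In the 10 libraries these were -0.50, -0.26 and 0.29. The value of rno-miR-30e-3p was below 0 in the 12 with the plain miR total (-0.028) and with calibrator scaling (-2.05). Over the 7 members the median was -0.66 in the 12 libraries and -0.26 in the 10, beside -0.54 and -0.05 over all miRs. Within vehicle 0 of 8 members were called in edgeR, with 0.469% of all miRs called in the 12 libraries and 0.274% in the 10. The members at an unadjusted p under 0.05 there were rno-miR-30a-5p (log2 fold change -1.06) and rno-miR-30d-5p (-1.14), and in the 10 libraries there were 0. DESeq2 and limma-voom called 0 members within vehicle. Within rapamycin the log2 fold change was -0.79 (SE 0.48) for rno-miR-30a-5p and -0.66 (SE 0.49) for rno-miR-30d-5p.

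Groups were also compared by whether their CPM ranges overlapped. Between rapamycin and vehicle no member was free of overlap at day 7 or at day 21, where 3.29% and 4.46% of all miRs were. Between day 21 and day 7 with vehicle there was again no member, where 5.87% of all miRs did not overlap. With rapamycin 3 members lay lower at day 21 without overlap, where 10.1% of all miRs did not overlap. Besides rno-miR-30b-5p these were rno-miR-30c-5p, with 796, 740 and 1491 CPM at day 7 against 381, 666 and 508 CPM at day 21, and rno-miR-30a-3p, with 949, 2251 and 937 CPM against 825, 874 and 889 CPM. Neither of the last 2 was called in edgeR, and rno-miR-30c-5p rested on 6 to 48 counts per library there. In the listed libraries, with 2 per group at day 7, the same 3 members lay lower at day 21 with rapamycin, where 14.8% of all miRs did not overlap, and again no member differed so with vehicle, where 10.7% did not. Between the listed rapamycin and vehicle libraries of day 7, rno-miR-30a-5p lay higher and rno-miR-30e-3p lower without overlap, where 30.7% of all miRs did not overlap.

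The arms of one hairpin were compared next, as the ratio of the 5p count to the 3p count within a library, each with 0.5 added, which does not depend on scaling. In miR-30a the 5p arm exceeded the 3p arm in 12 of 12 libraries, by 6.26-fold to 25.6-fold with a median of 11.5-fold. In miR-30d it exceeded the 3p arm by 11.7-fold to 461-fold with a median of 180.7-fold, but rno-miR-30d-3p had only 0 to 6 counts, so the size of that ratio is poorly determined. In miR-30e the arms were closer, with the 5p arm higher in 11 of 12 libraries and a median of 1.81-fold. The medians over the 10 listed libraries were 10.5-fold, 144.7-fold and 1.77-fold. By these counts the miR-30a and miR-30e hairpins held different arm ratios in the same libraries. The uncertain split of reads between rno-miR-30a-5p and rno-miR-30e-5p bears on both ratios, and the difference between hairpins was not tested.

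The miR-30e ratio was uneven among libraries. Most stood between 0.887-fold and 2.18-fold, while rapamycin day 21 replicate 2 reached 17.4-fold, vehicle day 7 replicate 1 reached 8.34-fold and rapamycin day 7 replicate 3 reached 7.90-fold. In the first of these, rno-miR-30e-5p had 165 counts and rno-miR-30e-3p had 9, against 23 and 26 in replicate 1 and 40 and 29 in replicate 3 of the same group. In vehicle day 21 the 3 ratios were 1.46-fold, 1.73-fold and 1.81-fold.

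Neither treatment nor day was called for any of the 3 arm ratios, in exact permutation tests, two-sided, adjusted over the 3 hairpins. For rapamycin against vehicle the mean difference in log2 ratio was 0.08 for miR-30a (exact adjusted p = 0.83), -1.40 for miR-30d (exact adjusted p = 0.27) and 0.42 for miR-30e (exact adjusted p = 0.83). For day 21 against day 7 it was -0.28, -0.82 and -0.52, each with an exact permutation adjusted p of 0.55. With 2 added to each count in place of 0.5, the miR-30d difference was -0.81 for treatment (exact permutation adjusted p = 0.66). For day it was -1.43 (exact permutation unadjusted p = 0.045, adjusted p = 0.135). The size of the miR-30d differences thus depended on the added count. In the 10 listed libraries the treatment differences were 0.39, -1.51 and 0.93, with exact adjusted p from 0.425 to 0.45, and the day differences were -0.06, -0.37 and -0.28, each with an exact adjusted p of 0.85. For treatment in the 10, 1 hairpin alone could not have fallen below an adjusted p of 0.05. Left without vehicle day 7 replicate 3, the miR-30d difference for rapamycin was -1.82 and passed (exact permutation adjusted p = 0.045), which rests on rno-miR-30d-3p counts of 0 to 6.

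**Figure D3:**
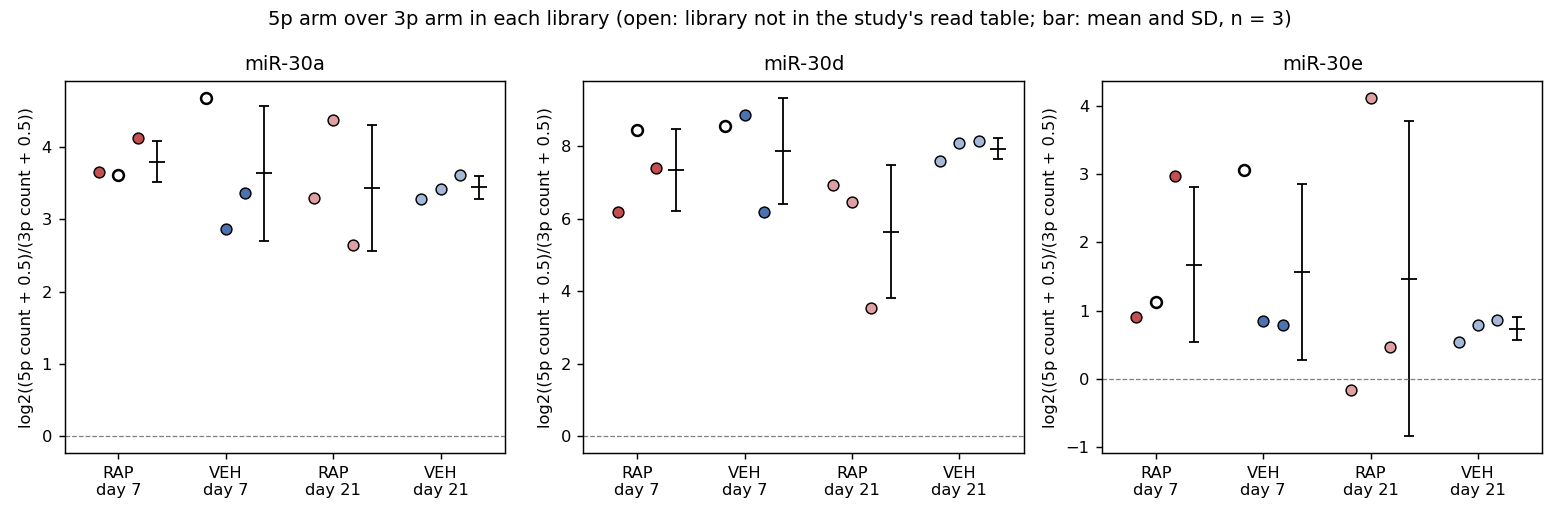
log2 ratio of 5p to 3p counts, each with 0.5 added (vertical axes), for the hairpins miR-30a, miR-30d and miR-30e in each of the 12 libraries by treatment and day. Points are libraries, open points the 2 not in the study's read table, bars give the mean and SD of 3 libraries, and the dashed line marks equal arms. miR-30e lies near the line in most libraries and reaches 4.12 in rapamycin day 21 replicate 2.

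The counts behind the low 3p arms were few. rno-miR-30d-3p had 2, 2 and 1 counts in rapamycin day 7, 6, 0 and 3 in vehicle day 7, 0, 3 and 4 in rapamycin day 21, and 0 in all 3 libraries of vehicle day 21, where 3 counts would have been 93.4 to 120 CPM. The table also held 2 rows of the family outside the 8 members, the 3p products of the miR-30c hairpins. rno-miR-30c-1-3p had 0 to 12 counts and rno-miR-30c-2-3p 0 to 31, and the highest count of both was in the unlisted vehicle day 7 replicate 1.

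Shares within the summed 5p count gave the composition of the family free of scaling. Averaged over 12 libraries, rno-miR-30a-5p held 51.7% ± 6.46 (SD, n = 12) of the 5p count, rno-miR-30d-5p 29.6% ± 3.79, rno-miR-30e-5p 13.4% ± 3.23, rno-miR-30c-5p 3.52% ± 1.64 and rno-miR-30b-5p 1.80% ± 1.58. Over the 10 listed libraries the means were 50.7%, 29.3%, 14.2%, 3.94% and 1.92%. The share of rno-miR-30a-5p ran from 39.9% to 60.1%, while its level ran from 5670 to 33069 CPM. The highest share was at most 2.26 times the lowest for the 3 abundant 5p members, whose highest level was 4.71 to 9.29 times the lowest. For rno-miR-30c-5p and rno-miR-30b-5p the share spread more than the level did, 5.37 against 3.92 times and 46.4 against 34.8 times.

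No share was called by treatment or by day in exact permutation tests adjusted over the 5 members, which are not independent because the shares of a library sum to 100. For rapamycin against vehicle the largest difference was 6.01 percentage points for rno-miR-30a-5p (exact permutation adjusted p = 0.4625) and 5.91 points in the 10 libraries (exact adjusted p = 0.389). For day 21 against day 7 the largest was 3.67 points for rno-miR-30e-5p, whose mean was 11.6% ± 2.37 (SD, n = 6) at day 7 and 15.2% ± 3.05 (SD, n = 6) at day 21 (exact permutation adjusted p = 0.2375), and 2.63 points in the 10 (exact adjusted p = 0.45). The share of rno-miR-30b-5p differed by -1.49 points over time (exact adjusted p = 0.2375), and by -2.17 points in the 10 (exact unadjusted p = 0.04, adjusted p = 0.2). In the 10 libraries 1 member alone could not have passed, since its adjusted p could not fall below 0.0833 for treatment or 0.05 for day.

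**Figure D4:**
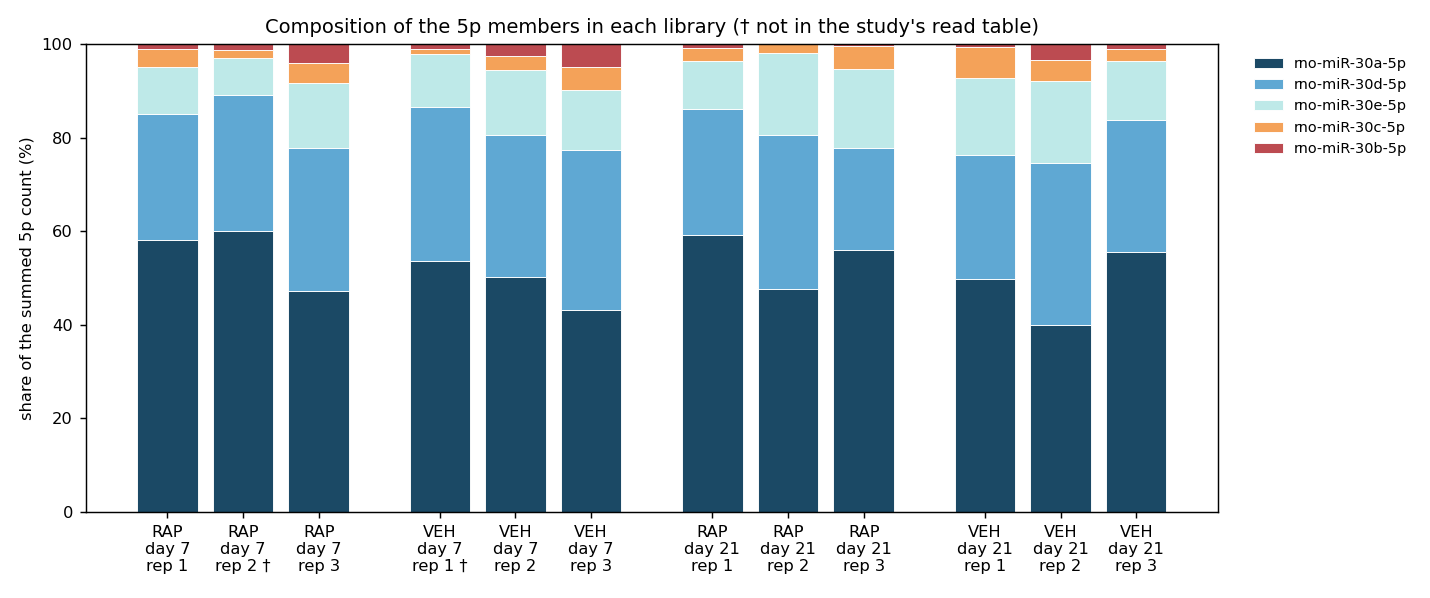
Share of each 5p member in the summed 5p count (vertical axis, %) in each of the 12 libraries by treatment, day and replicate, stacked to 100%. rno-miR-30a-5p takes the largest share in every library, from 39.9% to 60.1%, and a dagger marks the 2 libraries not in the study's read table.

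Other miRs known to target autophagy genes were taken from a list of 26, of which 23 were in the table. For rapamycin against vehicle with timepoint as block, 0 of 23 were called in edgeR, 1 had an unadjusted p under 0.05, and the median log2 fold change was -0.06 beside -0.10 over all miRs. At day 7 and at day 21 again 0 of 23 were called, with 0 and 1 at an unadjusted p under 0.05. In the 10 listed libraries 0 of the 21 tested were called in each of these comparisons, with 2 at an unadjusted p under 0.05 with the block, 1 at day 7 and 2 at day 21. Named after its values were seen, rno-miR-34a-5p was the one below 0.05 unadjusted over all 12 libraries, with a log2 fold change of -1.53 (SE 0.56, adjusted p = 0.862 in edgeR) with the block and -2.37 (SE 0.85, adjusted p = 0.653) at day 21. In the 10 it had -1.72 (SE 0.58, adjusted p = 0.177 in edgeR) and -2.22 (SE 0.79, adjusted p = 0.36). The others in the 10 were rno-miR-101a-3p with the block (0.71), rno-miR-375-3p at day 7 (3.50) and rno-miR-25-3p at day 21 (0.66). DESeq2 and limma-voom called 0 of the list in each of these comparisons and over time. The study, which removed low-abundance miRs before its adjustment, did report members of the list. It gave rno-miR-34a-5p as lower with rapamycin with timepoint as block, and rno-miR-142-3p as lower at day 7. For day 21 against day 7 with treatment as block, 1 of 23 was called, where 3.52% of all miRs were, so the call is not read as particular to the list. It was rno-miR-199a-5p, lower with a log2 fold change of -1.77 (SE 0.54, adjusted p = 0.0319 in edgeR). In the 10 libraries 0 of 21 were called, where 0.274% of all miRs were, with 0 at an unadjusted p under 0.05.

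The 4 most abundant miRs of that list were rno-miR-25-3p (mean 17375 CPM), rno-miR-181a-5p (17302 CPM), rno-miR-93-5p (13953 CPM) and rno-miR-26b-5p (11564 CPM), all of the order of rno-miR-30a-5p. Their log2 fold changes for rapamycin against vehicle with timepoint as block were 0.26 (SE 0.32), -0.09 (SE 0.32), 0.06 (SE 0.32) and -0.14 (SE 0.33), and none was called.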

How the data were processed

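Serum EVs were isolated by size exclusion, and RNA with spike-ins added was made into libraries with the RealSeq Biofluids kit. The authors deposited raw read counts per mature miR. Per the study's methods, reads were trimmed (cutadapt 3.3), mapped with Bowtie 1.3.0 to the rat assembly mRatBN7.2 with up to 2 mismatches and then to miRBase with up to 1, with at least 17 nt. The table held 426 miRs and 10 spike-in sequences, which were left out of totals and tests. Depth was 16327 to 95834 miR counts per library, which limits precision for members with few counts.

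Groups followed the labels. The counts were fitted with edgeR 4.0.16 (glmQLFit in legacy mode, glmQLFTest, TMM) in R 4.3.3, with all 426 miRs and 12 libraries, as 1 mean per group and as treatment plus timepoint, and p-values were adjusted by Benjamini-Hochberg over all miRs. A miR was called at an adjusted p under 0.05. Arm ratios, shares and orders of level were tested by exact permutation over libraries, two-sided. Alternatives were the 10 libraries in the study's read table, other scalings (including the 7 calibrator spike-ins), filters, DESeq2 1.42.0, limma-voom 3.58.1, a replicate block and leaving out each library. Dispersions of edgeR 4 and the permutation test of log2(CPM + 10) were added after seeing the data. The edgeR procedure was tested on artificial counts. The text names all 8 members, the other rows of the family and the 5 miRs most like the summed 5p level. Of the autophagy list it names those called, the 4 most abundant, those with an unadjusted p under 0.05 for treatment and those the study reported. Those with an unadjusted p under 0.05 and those the study reported were chosen after their values were seen. The members and lists were chosen with earlier results of these data known. Target sites in mRNAs were not analysed here.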

Additional observations from a re-analysis of the deposited data

How the results depend on the processing

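Depth limits the low members most, since a count of 3 is up to 184 CPM and rno-miR-30d-3p never exceeded 6 counts. Scaling to the calibrators moved the median log2 fold change of all miRs for day 21 against day 7 with treatment as block from -0.54 to -2.19, and for rapamycin against vehicle from -0.10 to -0.76. The number of members called for day 21 against day 7 with treatment as block, 1 in the report, was 0 in the 10 listed libraries, 3 with RLE size factors, 3 with the total without TMM, 6 with calibrator scaling, 0 with filterByExpr, 0 with at least 10 counts in every library, 2 with independent filtering, 0 with limma-voom and 0 to 3 when a library was left out. Of all miRs, 3.52% were called in that comparison in the main fit. That share was 6.57% with RLE size factors, 7.04% with the total without TMM and 27.0% with calibrator scaling. Within vehicle calibrator scaling gave 3 in place of 0. The share of all miRs is not given here for that fit, for independent filtering or for leaving out a library. Those counts are thus not read as particular to the family. Within rapamycin the 1 call became 0 in the 10 libraries, with calibrator scaling, either filter on low counts, DESeq2, limma-voom, only the groups compared, the replicate block and the dispersions of edgeR 4, and 0 to 1 when a library was left out. The loss with a minimum of 10 counts follows from the filter itself, which leaves 4 of the 8 members and removes rno-miR-30b-5p. The cause of the other losses was not tested.

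Same-numbered libraries showed no consistent pairing, though with 3 libraries per group this check cannot exclude one. Same-numbered rapamycin and vehicle libraries deviated from their group means with a mean correlation of -0.32 (-0.77 to 0.32), and the replicate block left 1 member called for day 21 against day 7 with treatment as block (rno-miR-30b-5p, log2 fold change -2.21, adjusted p = 0.0458 in edgeR). Across days the mean correlation was -0.003. For the arm ratios the block has 64 arrangements, so 1 hairpin alone could not fall below an adjusted p of 0.0938, and it bears on no call.

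Reversed signs were found for values that were small and uncalled in the main fit. The reversed values were uncalled too, but some were larger in size, most of all with calibrator scaling. With calibrator scaling the log2 fold change for rapamycin against vehicle with timepoint as block was -0.46 for rno-miR-30a-5p, -0.74 for rno-miR-30c-5p, -0.64 for rno-miR-30d-5p, -0.71 for rno-miR-30e-5p and -0.15 for rno-miR-30a-3p, and at day 7 it was -1.26 for rno-miR-30a-5p, -0.88 for rno-miR-30b-5p, -0.82 for rno-miR-30c-5p and -0.36 for rno-miR-30a-3p. For day 21 against day 7 it was -2.05 for rno-miR-30e-3p. With limma-voom the values were -0.035 for rno-miR-30e-5p with timepoint as block, and at day 7 -0.089 for rno-miR-30b-5p and 0.0051 for rno-miR-30e-3p, which was 0.18 with RLE size factors, 0.15 with the total without TMM, 0.18 with DESeq2 and 0.027 with the dispersions of edgeR 4. In the 10 libraries the day 7 values were 0.56 for rno-miR-30d-5p, 0.59 for rno-miR-30e-5p and -0.044 for rno-miR-30a-3p, and for day 21 against day 7 it was 0.047 for rno-miR-30e-5p. With the total without TMM that comparison gave -0.028 for rno-miR-30e-3p. In the 10 libraries the shares over time were 1.61 points for rno-miR-30a-5p and -0.128 for rno-miR-30c-5p.

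When a library was left out, the log2 fold change at day 7 ran from -0.43 to 1.28 for rno-miR-30a-5p, -0.55 to 0.71 for rno-miR-30b-5p, -0.61 to 0.89 for rno-miR-30d-5p, -0.47 to 0.63 for rno-miR-30e-5p, -0.36 to 0.61 for rno-miR-30a-3p and -0.53 to 0.24 for rno-miR-30e-3p. At day 21 it ran from -0.19 to 0.82 for rno-miR-30a-5p, -0.69 to 0.86 for rno-miR-30d-5p and -0.65 to 0.91 for rno-miR-30e-5p. With timepoint as block it ran from -0.19 to 0.25 for rno-miR-30c-5p, -0.36 to 0.64 for rno-miR-30d-5p and -0.36 to 0.56 for rno-miR-30e-5p. The arm ratio for rapamycin against vehicle ran from -0.15 to 0.34 for miR-30a, -1.82 to -0.88 for miR-30d and -0.24 to 0.83 for miR-30e, and the share of rno-miR-30a-5p over time from -2.73 to 1.37 points.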

Other observations

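Of the 70 miRs outside the family with at least 10 counts in every library, those whose log2(CPM + 10) followed the summed 5p level most closely over the 12 libraries were rno-miR-29a-3p (r = 0.96, Pearson), rno-miR-378a-3p (r = 0.91), rno-miR-27b-3p (r = 0.90), rno-miR-24-3p (r = 0.88) and rno-miR-29c-3p (r = 0.88). In the 10 listed libraries the values were 0.95, 0.81, 0.85, 0.82 and 0.71. These are descriptions over libraries that share groups, depth and scaling, with no test.

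Within the family, rno-miR-30a-5p and rno-miR-30d-5p, which come from separate hairpins, had r = 0.93 in log2(CPM + 10) over the 12 libraries and 0.85 over the 10. The 2 arms of miR-30e had r = -0.75 over the 12 libraries and -0.91 over the 10. The 2 arms of miR-30a had r = 0.74 and 0.50. How reads matching more than 1 member were counted is not stated, and its part in these correlations was not tested.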
